A study of Mus musculus with 6 samples.

Results

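The SLC25 family, mostly solute carriers of the inner mitochondrial membrane, was examined in 3T3-L1 adipocytes treated with dexamethasone. Its members were taken by name: every gene on the array whose annotated symbol starts with Slc25a, except Slc25a20. This gave 45 of the 19057 named genes and 73 of the 45281 probes. The 3T3-L1 line, mouse preadipocytes that turn into fat cells in culture, is an established line, so all arrays come from 1 cell source grown in a dish. By the paper's methods, all cells were differentiated with dexamethasone, methylisobutylxanthine and insulin, and then kept in medium without these drugs. Differentiated cells spent 24 hours in medium with 5% stripped serum. They then received 500 nM dexamethasone (DEX), a synthetic glucocorticoid, or the same volume of ethanol, 0.05% of the medium (vehicle), for 6 hours. RNA of 3 samples per group was hybridized to MouseWG-6 BeadChip arrays. No source used here states if the triplicates were grown as separate cultures. The p-values then reflect only how far these samples differ from each other, and that spread may be technical. Unless stated otherwise, signals are normalized log2 bead signals, errors are SDs over 3 arrays, and intervals are 95% intervals from limma. A gene passed at an adjusted p under 0.05 from limma's moderated test (two-sided, Benjamini and Hochberg procedure over 16317 tested probes).

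SLC25 proteins are encoded in the nucleus and made in the cytosol. Most are inserted into the mitochondrial membrane through the TOM and TIM22 complexes. They exchange carboxylates, nucleotides, phosphate, amino acids, cofactors and iron between the matrix and the cytosol. In adipocytes the citrate carrier is known for moving acetyl units out of mitochondria for fatty acid synthesis, and the dicarboxylate carrier for supplying malate or succinate in exchange for phosphate.

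Of the 45 SLC25 genes, 30 were detected, meaning that at least 1 probe had a detection p under 0.05 on 3 or more of the 6 arrays, and 27 of these were detected on all 6 arrays. Slc25a33, Slc25a30 and Slc25a29 were higher in DEX. Slc25a10, Slc25a1 and Slc25a25 were lower. Slc25a30 met the detection condition through its DEX arrays. With detection required on all 6 arrays it was not tested, and 2 of 27 members were higher, beside 4.51% of 8032 genes. Under that condition 3 members were lower, beside 3.14%. The other 24 detected genes did not pass, with log2 fold changes from -0.41 to 0.50. The 3 higher genes are 10% of the detected members, beside 4.52% of all 9144 tested genes, and the 3 lower genes are also 10%, beside 3.06% of all tested genes (6.56% and 5.95% with the replicate numbers as pairs, where the members' counts were again 3 and 3). With array weights 4 members were higher and 3 lower, beside 8.66% and 9.26% of all tested genes, so the distance from the background depended on the processing. With a change over 1.5 fold as a further condition these counts stayed at 3 and 3 in the main processing, beside 4.44% and 2.89% of all tested genes. With no background correction, Slc25a29 (log2 fold change 0.39), Slc25a30 (0.45) and Slc25a25 (-0.51) changed by less than 1.5 fold. Over all tested genes, 59.6% of the calls were higher in DEX, or 44.1% when arrays were scaled to the median of all probes. Every DEX array was above every vehicle array for 5 members, beside 12.2% of all tested genes, and below for 6 members, beside 15.7%. The median log2 fold change was 0.08 over the 30 members and -0.06 over all tested genes, and the median absolute log2 change was 0.22 against 0.20. At an unadjusted p under 0.05, 4 members were higher and 3 lower, but the share of all tested genes at this cutoff was not counted. In these bulk samples, fewer cells of a type and less RNA per cell cannot be told apart.

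**Figure D1:**
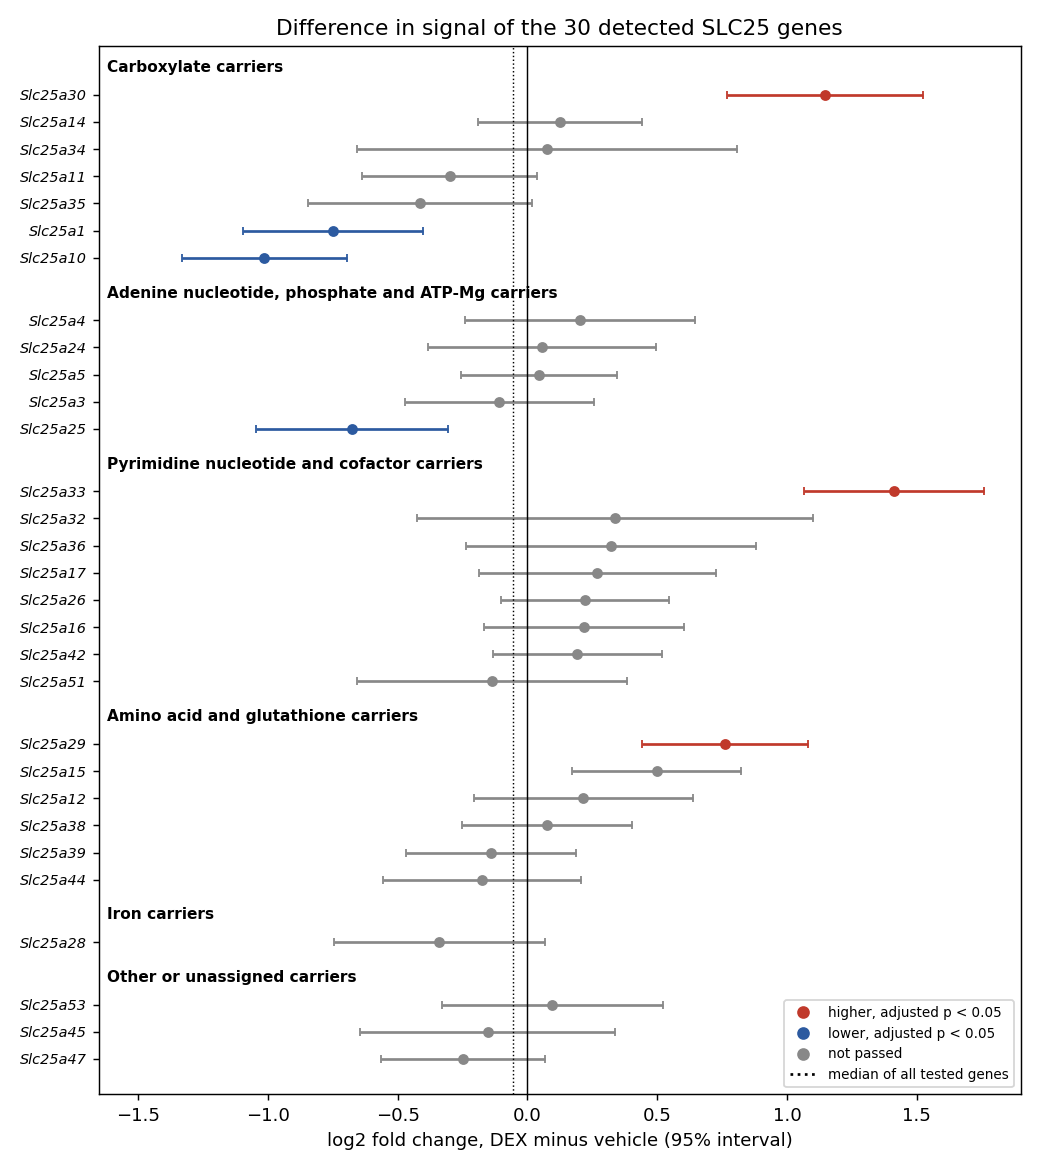
Log2 fold change of each of the 30 detected SLC25 genes, DEX minus vehicle (horizontal axis), with its 95% interval, for 3 arrays per group and grouped by substrate. The 3 genes that passed as higher are red and the 3 that passed as lower are blue, and the dotted line is the median of all tested genes, -0.06.

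The promoters of the pair of members with the largest rises and the pair with the largest falls are given here, 2 for each direction of change. Sequences are from RefSeq on the mouse build GRCm38.p6, from 250 bases before to 50 bases after the annotated start, 5′ to 3′ on the gene's strand. Capitals mark the CCAAT box, which reads ATTGG where it lies on the other strand. They also mark the E-box, spelled CACGTG on both strands. The Slc25a33 window is chr4:149774218-149774517 on the minus strand, and that of Slc25a30 is chr14:75786988-75787287 on the minus strand. The Slc25a10 window is chr11:120491587-120491886 on the plus strand, and that of Slc25a1 is chr16:17928170-17928469 on the minus strand.
Slc25a33: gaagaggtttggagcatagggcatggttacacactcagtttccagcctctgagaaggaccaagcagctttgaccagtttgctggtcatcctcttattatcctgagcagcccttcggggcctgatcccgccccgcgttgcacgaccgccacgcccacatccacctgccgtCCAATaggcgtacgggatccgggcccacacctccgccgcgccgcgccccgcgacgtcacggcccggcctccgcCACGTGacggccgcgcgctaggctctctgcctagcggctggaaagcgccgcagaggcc
Slc25a30: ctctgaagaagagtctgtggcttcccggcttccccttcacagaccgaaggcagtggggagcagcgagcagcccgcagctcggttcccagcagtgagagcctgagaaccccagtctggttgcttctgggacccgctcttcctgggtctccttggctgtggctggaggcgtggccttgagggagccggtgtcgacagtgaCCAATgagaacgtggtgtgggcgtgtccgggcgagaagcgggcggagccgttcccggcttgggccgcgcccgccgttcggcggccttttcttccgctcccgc
Slc25a10: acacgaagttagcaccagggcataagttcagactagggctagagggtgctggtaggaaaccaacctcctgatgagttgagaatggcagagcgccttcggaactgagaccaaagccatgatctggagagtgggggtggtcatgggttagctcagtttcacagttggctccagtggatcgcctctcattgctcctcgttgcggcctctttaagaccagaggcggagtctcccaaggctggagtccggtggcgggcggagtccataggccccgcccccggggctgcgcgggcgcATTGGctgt
Slc25a1: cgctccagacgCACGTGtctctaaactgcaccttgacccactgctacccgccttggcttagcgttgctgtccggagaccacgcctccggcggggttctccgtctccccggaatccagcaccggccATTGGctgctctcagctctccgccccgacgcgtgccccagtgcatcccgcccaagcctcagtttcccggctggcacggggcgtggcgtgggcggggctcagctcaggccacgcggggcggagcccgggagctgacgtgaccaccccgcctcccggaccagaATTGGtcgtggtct

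In Slc25a33 the CCAAT box began 81 bases and the E-box 8 bases before the start, and in Slc25a30 the CCAAT box began 52 bases before it. Slc25a10 had its ATTGG 42 bases after the start. Slc25a1 had an E-box 239 bases before the start, and ATTGG 125 bases before and 37 bases after it. Promoters were found for 35 of the 45 members (45 promoters) among 32851 in all, and both strands were searched. CCAAT was in 22 of the 45 member promoters (48.9%) and in 37.4% of all promoters. Counted by gene, 19 of the 35 members held it in at least 1 promoter, the 6 that passed among them. The share by gene over all genes was not counted. CACGTG was in 8 (17.8%) against 7.15% of all promoters, those of Slc25a1 and Slc25a33 among them. The palindromic glucocorticoid response element, an inverted repeat of TGTTCT around a short spacer of any bases, was in 0 member promoters and in 3 promoters of all (0.00913%). At that rarity, 0 among the 45 member promoters could be foreseen and says nothing of looser or more distant elements. TGTTCT by itself, which the full element contains, was in 4 member promoters (8.89%) and in 19.0% of all, and those 4 belong to Slc25a17, Slc25a31, Slc25a43 and Slc25a45. The cyclic AMP response element TGACGTCA was in 2 member promoters (4.44%), those of Slc25a25 and Slc25a36, against 1.79% of all. A match describes the letters in this window only.

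Among the carboxylate carriers, 7 of 9 members were detected, of which 1 rose, 2 fell and 4 did not pass. Slc25a10 (probe ILMN_2730797), the dicarboxylate carrier, fell 2.02-fold. The log2 signals were 11.49, 11.70 and 11.75 in vehicle and 10.63, 10.59 and 10.67 in DEX. The highest DEX array was below the lowest vehicle array, and the DEX arrays lay close together. The means were 11.64 ± 0.14 and 10.63 ± 0.04, a log2 fold change of -1.01 (SE 0.14, -1.33 to -0.70, limma adjusted p = 0.00231). Before normalization its bead signals on the linear scale were 3234, 3395 and 3906 in vehicle and 1700, 1433 and 1531 in DEX.

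Slc25a1 (probe ILMN_2919263), the citrate carrier that feeds cytosolic acetyl-CoA, fell 1.68-fold. Its log2 signals were 12.14, 11.94 and 11.86 in vehicle and 11.39, 11.24 and 11.06 in DEX, without overlap. The log2 fold change was -0.75 (SE 0.15, -1.09 to -0.40, limma adjusted p = 0.0189), from 11.98 ± 0.14 to 11.23 ± 0.16. A second probe gave 9.50, 9.50 and 9.60 in vehicle and 8.80, 8.55 and 9.01 in DEX, also -0.75 (limma adjusted p = 0.0213), so both probes of the gene passed. The adjusted p missed the threshold with vehicle replicate 1 (0.0759), 2 (0.0851) or 3 (0.0502), or DEX replicate 2 (0.0658) left out. Over all alternatives it was 0.00403 to 0.0851.

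Slc25a30 (probe ILMN_2675523), the kidney mitochondrial carrier protein 1, a relative of the uncoupling proteins, was the carboxylate group's 1 riser. Its log2 signals were 4.74, 4.91 and 5.07 in vehicle and 6.22, 5.79 and 6.14 in DEX. All DEX arrays detected it, but only 1 of 3 vehicle arrays did, so the vehicle level lay at the background, where the lowest detected signals of the arrays were 4.97 to 5.05. The means were 4.91 ± 0.16 and 6.05 ± 0.23, and the measured log2 fold change was 1.15 (SE 0.17, 0.77 to 1.52, limma adjusted p = 0.00309), or 2.21-fold. With the undetected vehicle arrays raised to the lowest detected signal of their array it was 1.03, or 2.04-fold, so the fitted values are set against background. Bead signals were 101, 100 and 110 in vehicle and 153, 123 and 144 in DEX. The gene passed under all 15 alternatives that tested it, with log2 fold changes of 0.45 to 1.28. The lowest of these came with no background correction (0.45), lumi values (0.52) and an offset of 50 (0.65).

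The other carboxylate carriers lay between these. Slc25a11, the oxoglutarate and malate carrier, had log2 signals of 10.97, 10.84 and 10.82 in vehicle and 10.74, 10.60 and 10.38 in DEX. Its groups did not overlap, but the difference of -0.30 (-0.64 to 0.04) did not pass (limma adjusted p = 0.304), and its 3 probes gave -0.31 to -0.27. Slc25a35 gave -0.41 (-0.84 to 0.02), Slc25a14, also a relative of the uncoupling proteins, 0.13 (-0.19 to 0.44) and Slc25a34 0.08 (-0.66 to 0.81). Slc25a21, the oxodicarboxylate carrier, and Slc25a27 were not detected. The group's median log2 fold change was -0.30.

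**Figure D2:**
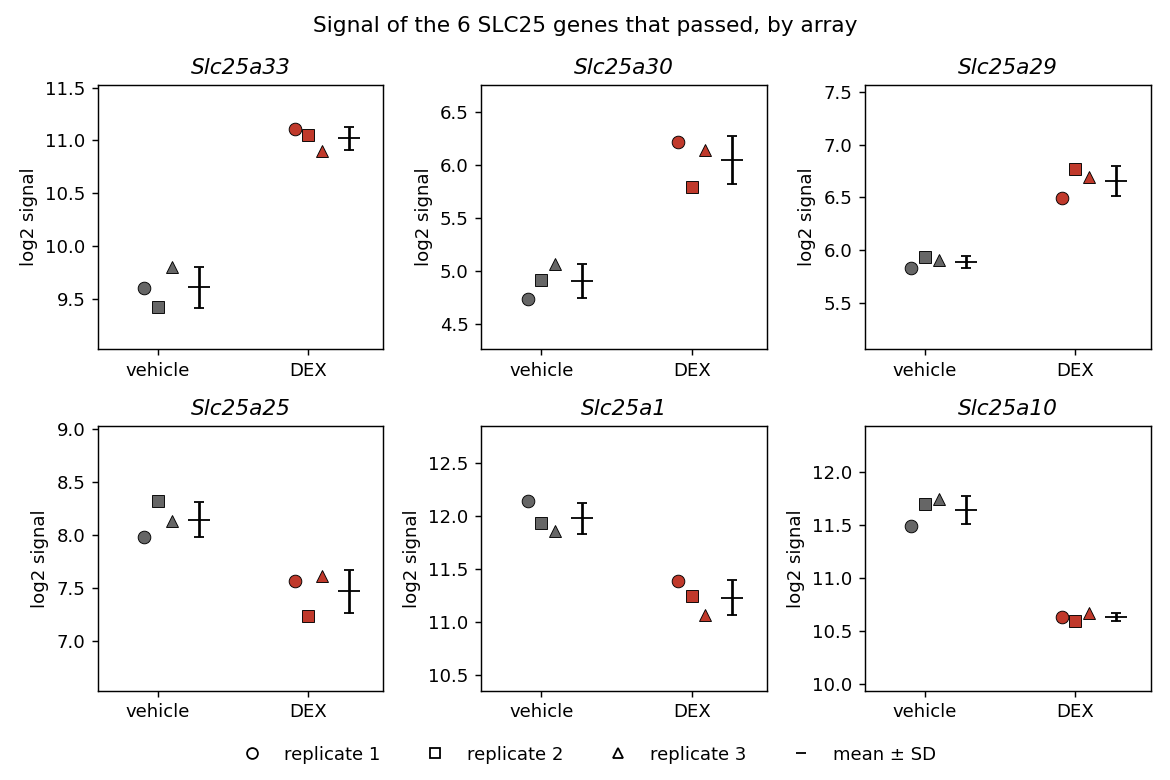
Normalized log2 signal (vertical axis, own range in each panel but the same span) of the 6 SLC25 genes that passed, by array in vehicle and DEX, with marker shapes for the replicate numbers and bars for the mean ± SD of 3 arrays. In each panel the vehicle and DEX arrays do not overlap, and Slc25a33 shows the widest distance between group means, 9.61 to 11.02.

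Of the adenine nucleotide, phosphate and ATP-Mg carriers, 5 of 9 were detected, 1 fell and 4 did not pass. Slc25a25 (probe ILMN_1216597), which exchanges ATP-Mg for phosphate and so adjusts the adenine nucleotide pool of the matrix, fell 1.60-fold. Signals on the log2 scale were 7.98, 8.32 and 8.13 in vehicle and 7.56, 7.23 and 7.61 in DEX. The groups did not overlap, with DEX replicate 2 the lowest array. The log2 fold change was -0.68 (SE 0.16, -1.05 to -0.31, limma adjusted p = 0.0397), from 8.14 ± 0.17 to 7.47 ± 0.20. This call lay near the threshold: the adjusted p was 0.0813 with all probes tested, 0.0618, 0.200 and 0.124 with vehicle replicate 1, 2 or 3 left out, and 0.134 with DEX replicate 2 left out. Over all alternatives it was 0.00237 to 0.200.

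The carriers that oxidative phosphorylation itself uses gave small differences. Slc25a5, the adenine nucleotide translocase ANT2, had log2 signals of 13.65, 13.66 and 13.69 in vehicle and 13.72, 13.64 and 13.77 in DEX, a difference of 0.04 with an interval of -0.26 to 0.34. Slc25a3, the phosphate carrier, gave -0.11 (-0.47 to 0.25) and its second probe -0.03. Slc25a4 (ANT1) gave 0.20 (-0.24 to 0.65), but its log2 signals of 5.22 to 5.96 lay near the lowest detected signals (4.97 to 5.05). In these 3 genes the groups overlapped, and the intervals leave room for changes of either sign. The calcium-regulated ATP-Mg carrier Slc25a24 gave 0.06, 0.04 and -0.07 on its 3 probes. Slc25a23 and Slc25a41 of the same subfamily, the ANT form Slc25a31 and Slc25a54 were not detected.

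All 8 pyrimidine nucleotide and cofactor carriers were detected, 1 rose and 7 did not pass. Slc25a33 (probe ILMN_2761046), which carries pyrimidine nucleotides into mitochondria, had the widest difference of the family, a 2.66-fold rise (2.09 to 3.39). Its log2 signals were 9.60, 9.42 and 9.81 in vehicle and 11.11, 11.06 and 10.90 in DEX. The lowest DEX array was above the highest vehicle array by more than either group's spread. The means were 9.61 ± 0.19 and 11.02 ± 0.11, a log2 fold change of 1.41 (SE 0.15, limma adjusted p = 5.47e-04). Bead signals were 943, 740 and 1057 in vehicle and 2321, 1937 and 1778 in DEX. It passed under all 16 alternatives.

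Slc25a36, the other pyrimidine nucleotide carrier, gave log2 signals of 6.38, 6.46 and 6.87 in vehicle and 6.46, 6.78 and 7.44 in DEX. These overlapped, and the difference of 0.32 (-0.24 to 0.88) did not pass (limma adjusted p = 0.520). Its other probes gave 0.02 and 0.30. Slc25a26, the S-adenosylmethionine carrier, was at 7.95, 8.01 and 7.85 in vehicle and 8.09, 8.32 and 8.07 in DEX. Its groups did not overlap, but the 0.22 difference (-0.10 to 0.55) did not pass (limma adjusted p = 0.435). Slc25a17, which sits in the peroxisome and carries coenzyme A and other cofactors, gave 0.27, Slc25a16 0.22 and the mitochondrial coenzyme A carrier Slc25a42 0.19. Slc25a51, which carries NAD, gave -0.13. Slc25a32, linked to folate and FAD transport, gave 0.34 with a wide interval (-0.42 to 1.10) and was detected on 2 arrays of each group. A second probe of it was detected on all DEX arrays and on no vehicle array, so it met the detection condition only through DEX. Its DEX mean was 1.15-fold above the mean of the lowest detected signals of the vehicle arrays. The difference of this probe did not pass (limma adjusted p = 0.152). The median of the group was 0.25.

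Of the 12 amino acid and glutathione carriers, 6 were detected, 1 rose and 5 did not pass. Slc25a29 (probe ILMN_1225300), which carries basic amino acids such as arginine and lysine, rose 1.70-fold. On the log2 scale its signals were 5.83, 5.94 and 5.90 in vehicle and 6.50, 6.77 and 6.70 in DEX. All arrays detected it and the groups did not overlap. The means were 5.89 ± 0.06 and 6.65 ± 0.14, a log2 fold change of 0.76 (SE 0.14, 0.44 to 1.08, limma adjusted p = 0.0115). The adjusted p was 0.0612 or 0.0526 with vehicle replicate 2 or 3 left out and 0.0542 with DEX replicate 2 left out. Its range over all alternatives was 0.00161 to 0.0612. The log2 fold change was smaller with no background correction (0.39), on lumi values (0.43) and with an offset of 50 (0.53), and passed in each.

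Slc25a15, the ornithine carrier of the urea cycle, lay just outside the threshold. Its log2 signals were 7.86, 7.74 and 7.96 in vehicle and 8.24, 8.49 and 8.33 in DEX. The groups did not overlap, and the log2 fold change was 0.50 (0.17 to 0.82, limma adjusted p = 0.0759). It passed with no background correction (0.0396), with an offset of 50 (0.0462), on the authors' processed values (0.0412) and with array weights (0.00916), and over all alternatives its adjusted p was 0.00916 to 0.317. Its second probe gave 0.29 (limma adjusted p = 0.501). Slc25a12, the aspartate and glutamate carrier of the malate-aspartate shuttle, gave 0.22 (-0.21 to 0.64). Slc25a38, the glycine carrier used for heme synthesis, gave 0.08, and its other probes 0.10 and -0.03. Slc25a39, linked to glutathione, gave -0.14, and Slc25a44, a carrier of branched-chain amino acids, -0.17. Slc25a13, the second aspartate and glutamate carrier, the glutamate carriers Slc25a18 and Slc25a22, the ornithine carrier Slc25a2, and Slc25a40 and Slc25a48 were not detected.

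Of the iron carriers, Slc25a28 (mitoferrin 2) was detected and Slc25a37 (mitoferrin 1), known for iron uptake in erythroid cells, was not. The log2 signals of Slc25a28 were 10.43, 10.30 and 10.31 in vehicle and 10.29, 10.08 and 9.65 in DEX. Every DEX array was below every vehicle array, but DEX replicate 3 lay apart from the other two, and the difference of -0.34 (-0.75 to 0.07) did not pass (limma adjusted p = 0.335). Among members with other or unassigned substrates, Slc25a47 gave -0.25 without overlap of the groups, Slc25a45 -0.15 and Slc25a53 0.10, none of which passed. Slc25a43 and Slc25a46 were not detected. In all, 15 members with 23 probes were not detected, 13 of them on no array. Slc25a22 and Slc25a37 were detected on 1 array each, both in vehicle. Not being detected means that a probe was not above the negative control beads at this signal, and does not show that the transcript is absent.

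**Figure D3:**
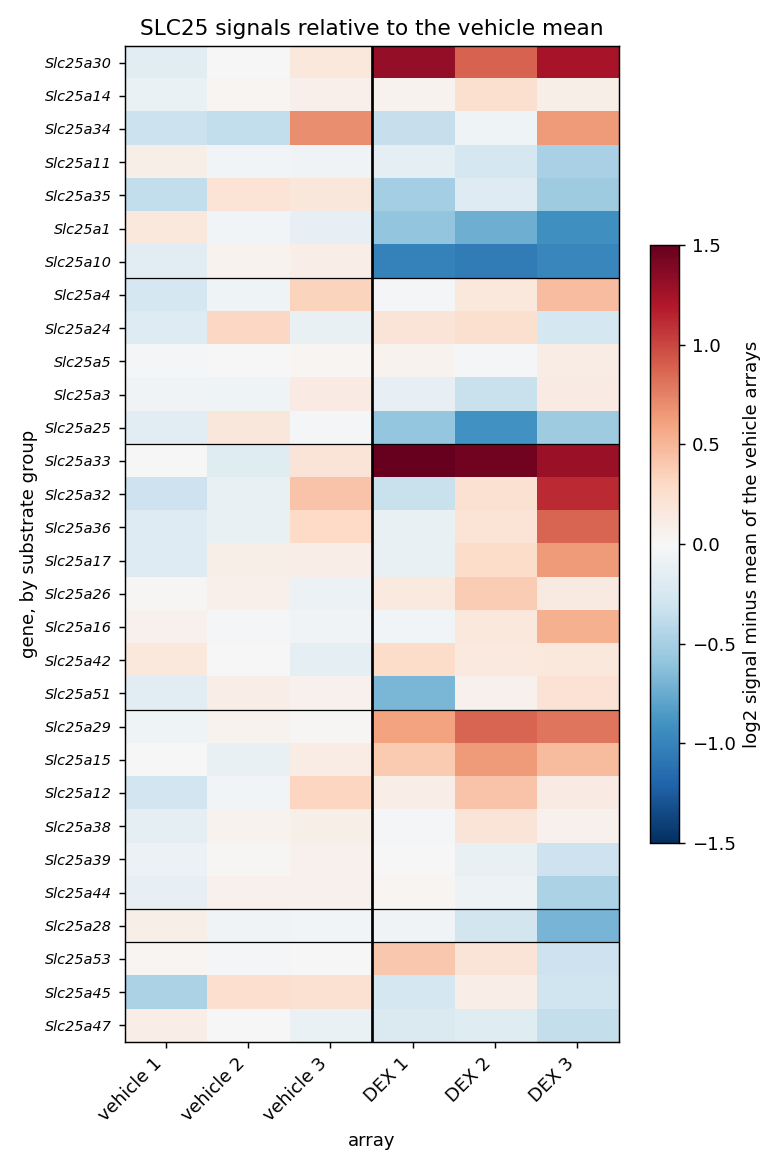
Log2 signal of each detected SLC25 gene (rows, by substrate group) on each of the 6 arrays (columns) minus the mean of its 3 vehicle arrays, from blue (lower) to red (higher). The 6 genes that passed have one colour across all 3 DEX arrays, and Slc25a32 and Slc25a34 are highest on the arrays numbered 3 in both groups.

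Spread between arrays differed among members. SDs of the log2 signal ran from 0.02 to 0.74, and the median distance from a fold change to its interval's end was 0.37. For Slc25a34, vehicle was at 5.32, 5.27 and 6.34 and DEX at 5.29, 5.57 and 6.28, so the arrays numbered 3 of both groups stood above the other arrays. The same order of arrays was seen in 5 of the 30 members (16.7%), namely Slc25a3, Slc25a4, Slc25a32, Slc25a34 and Slc25a36, beside 6.12% of all tested genes, a pattern chosen after these values were seen. None of the 6 genes that passed was among them. The median difference of the members from their vehicle mean was -0.12, -0.01 and 0.07 on the vehicle arrays and -0.03, 0.15 and 0.11 on the DEX arrays, and these medians overlapped between the groups. Of the 30 detected members, 22 had 1 tested probe. In 6 of the other 8, all probes had the same sign, the exceptions being Slc25a24 and Slc25a38, and the largest gap between probes of a gene was 0.30 on the log2 scale, in Slc25a36.

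**Figure D4:**
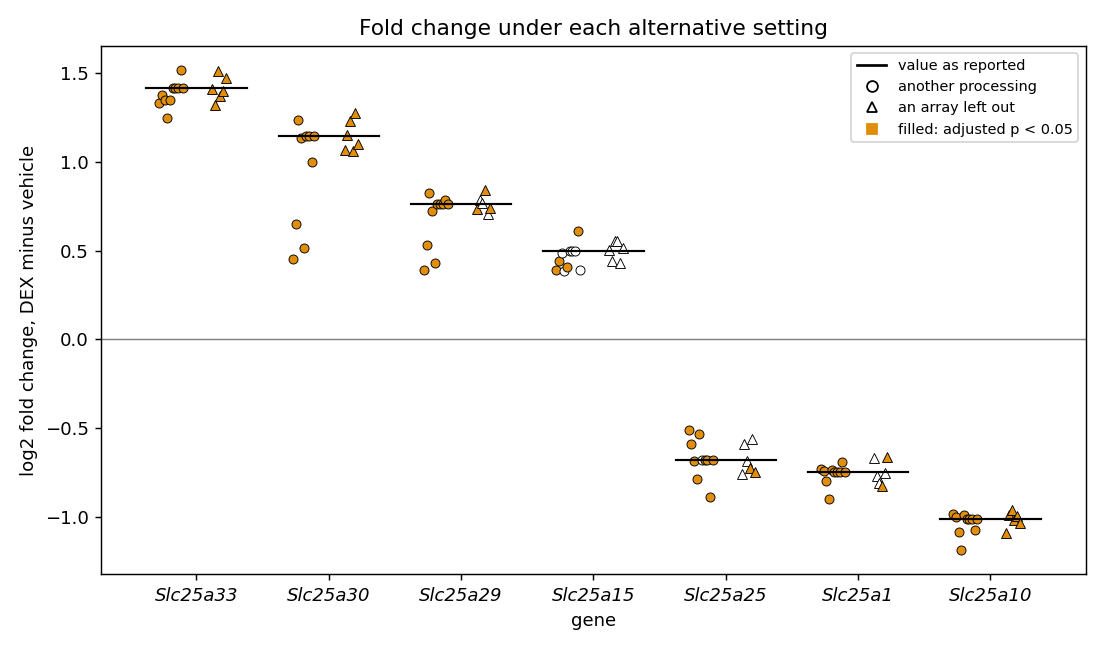
Log2 fold change, DEX minus vehicle (vertical axis), of the 6 SLC25 genes that passed and of Slc25a15, under each alternative processing (circles) and with each array left out in turn (triangles), filled where the adjusted p was under 0.05. All points keep the sign of the reported value (black line), and Slc25a33, Slc25a30 and Slc25a10 are filled throughout.

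The enzymes that use or supply the solutes of these carriers were read beside them. Of 18 tested, 1 rose and 0 fell, beside 4.52% and 3.06% of all tested genes, and the median log2 fold change was -0.10. The one that rose was Glud1, glutamate dehydrogenase, from 10.99 ± 0.11 to 11.68 ± 0.23 (0.69, SE 0.16, limma adjusted p = 0.0329). Its adjusted p missed the threshold with vehicle replicate 1 (0.109), 2 (0.141) or 3 (0.0799) or DEX replicate 2 (0.0617) left out. It also missed with all probes tested (0.0657), with arrays scaled to the median of all probes (0.104) and with the mean of the gene's probes (0.113). Acly, which splits the citrate that Slc25a1 exports, gave -0.38 (limma adjusted p = 0.330), and Mdh2, mitochondrial malate dehydrogenase, -0.11 (0.703). Acly passed as lower under 2 of the 16 alternatives, array weights (-0.54, limma adjusted p = 0.0242) and DEX replicate 3 left out (-0.60, 0.0412). With the replicate numbers as pairs, Gpd1 (limma adjusted p = 0.0130) and Aco1 (0.0430) passed as well, both lower, beside 0.0601 and 0.0670 without pairs. Each passed under 7 of the 16 alternatives.

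Of 13 other mitochondrial transporters and carrier relatives tested, 0 rose and 1 fell (4.52% and 3.06% of all tested genes), with a median of -0.11. Sfxn5, a sideroflexin, fell by 0.71 on the log2 scale (SE 0.16, limma adjusted p = 0.0303), but not without vehicle replicate 2 (0.164) or 3 (0.127) or DEX replicate 2 (0.0740) or 3 (0.0637), nor with all probes tested (0.0652) or the mean of its probes (0.144). Mtch1, an outer membrane member of the carrier fold, gave -0.19 and Vdac1, the outer membrane channel, -0.06, neither of which passed.

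Of 13 tested genes on the import route of carrier proteins, 0 rose and 2 fell, beside 4.52% and 3.06% of all tested genes. Their median was -0.30 beside -0.06 over all tested genes. Tomm40, the pore of the outer membrane translocase, fell from 6.70 ± 0.33 to 5.79 ± 0.16 (-0.91, SE 0.19, limma adjusted p = 0.0191). Timm10, a chaperone of the intermembrane space, fell from 9.61 ± 0.05 to 8.99 ± 0.18 (-0.62, SE 0.15, limma adjusted p = 0.0381). Tomm40 missed the threshold without vehicle replicate 2 (0.0763) or 3 (0.0746) or DEX replicate 3 (0.0541), with all probes tested (0.0771) or with the mean of its probes (0.123). Timm10 missed it without vehicle replicate 1 (0.0874), 2 (0.171) or 3 (0.135) or DEX replicate 2 (0.0780) or 3 (0.0526). Timm8b gave -0.06 and Tomm7 -0.14, and neither passed.

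Of 12 tested regulators of mitochondrial and lipogenic genes, 0 rose and 1 fell (4.52% and 3.06% of all tested genes), with a median of -0.11. Ppargc1a, the coactivator PGC-1alpha that drives many mitochondrial genes, fell from 8.03 ± 0.17 to 6.76 ± 0.27 (-1.27, SE 0.18, limma adjusted p = 0.00225) and passed under all 16 alternatives. Its relative Ppargc1b (-0.85, limma adjusted p = 0.0687) passed under 4 alternatives, among them the replicate numbers as pairs (0.0293) and DEX replicate 1 left out (0.0176). Pparg, the adipocyte nuclear receptor, gave 0.10 and Esrra, a nuclear receptor partner of PGC-1alpha, -0.52 (limma adjusted p = 0.0940), which passed under 3 alternatives.

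The arrays were alike in depth, with 15800 to 16523 detected probes, and log2 signals correlated at 0.974 to 0.994 within groups and 0.958 to 0.978 between them. All 11 adipocyte markers tested were detected on all 6 arrays, with summed bead signals of 81795 to 91518 in vehicle and 82288 to 102775 in DEX, and 1 of them, the lipid droplet protein Plin1, fell (-1.03, limma adjusted p = 0.00289). Of the preadipocyte markers 4 were tested, with sums of 18578 to 19278 in vehicle and 14004 to 18097 in DEX, and Pdgfrb fell (-1.10, limma adjusted p = 0.0188). The other 3 did not pass, with Pdgfra at 0.63 (limma adjusted p = 0.0510), Dlk1 at -0.10 and Thy1 at -0.21. The part of these shifts in the SLC25 differences was not tested. The endothelial markers Pecam1, Cdh5, Kdr and Tek and the macrophage markers Adgre1, Csf1r, Ptprc and Itgam were not detected, and Cd14 was detected on 5 arrays. Of the brown adipocyte markers, Ucp1, Elovl3 and Dio2 were not detected and Cidea was on 4 arrays.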

How the data were processed

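RNA of 3 vehicle and 3 DEX samples was hybridized to MouseWG-6 arrays. The authors deposited bead signals (intensity per probe, linear scale, not normalized) with a detection p-value for each, and a second table of intensity from lumi, quantile-normalized (99.7% equal quantiles, lowest value 60.2). Its lumi settings were not given in the sources. Bead signals were corrected for background by normexp, fitted with the detection p-values (offset 16), quantile-normalized and put on the log2 scale in limma 3.58.1 (R 4.3.3). The offset compresses differences of dim probes. Probes detected (p under 0.05) on 3 or more of the 6 arrays were tested (16317, 36.0%) with limma's moderated test, adjusted with the Benjamini and Hochberg procedure. A gene was read by its tested probe with the highest mean signal. Of the probes, 34885 had 1 symbol, 18 several and 10378 none. Figures used Python 3.11.15 and matplotlib 3.10.9.

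The members and lists were chosen with earlier results of these data known. Members that passed were given in full, the others by group, and from each list up to 3 genes that passed and up to 2 brightest that did not. The alternatives changed the background, normalization, filter, probe choice, replicate block, array weights and arrays included. Deviations from the group means correlated at 0.44, 0.30 and 0.25 between arrays of the same replicate number and at -0.37 to 0.10 between others, so the numbers were taken as pairs in the block. On simulated data with 16317 probes, DEX against vehicle, 10%, 76%, 80% and 100% of changes of 1.5, 2, 3 and 4 fold were recovered. Of the calls, 0.746% were false. Each fold was given to 50 probes, and signals were drawn independently for each array with the probe's own spread. Differences shared by a replicate number were not simulated, and fewer probes changed than were called in the data, so these shares describe that setting.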

Additional observations from a re-analysis of the deposited data

How the results depend on the processing

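The count of 3 SLC25 genes higher in DEX was 2 to 3 with each array left out, 2 with a change over 2 fold or with detection required on all 6 arrays (where Slc25a30 was not tested), and 4 with no background correction, an offset of 50, lumi values or array weights. The count of 3 lower was 1 to 3 with an array left out (1 without vehicle replicate 1, 2 or 3 or DEX replicate 2), 2 with all probes tested and 1 with a change over 2 fold. The median of 0.08 was 0.02 to 0.14 with an array left out and 0.01 with arrays scaled to the median of all probes, an alternative chosen after the data were seen, under which the median of all genes went from -0.06 to -0.15. With the replicate block the counts were 3 and 3 and the median 0.08, and the block changed no member's call. No called gene changed sign. Of the genes that did not pass, 8 had fold changes of both signs over the alternatives, such as Slc25a34 (-0.21 to 0.42), and 23 passed under none of those that tested them (16 for 21 genes, 15 for Slc25a32 and Slc25a51). Over all genes, 413 higher and 280 lower became 600 and 544 with the block, 792 and 847 with array weights, 348 and 441 with scaling to all probes, 319 and 161, 246 and 88, and 276 and 132 without vehicle replicate 1, 2 or 3, and 295 and 135 without DEX replicate 2, so the direction with more calls turned with array weights and with scaling to all probes. In the lists, partner enzymes higher were 0 to 1 and lower 0 to 5, transporters lower 0 to 2, import genes lower 0 to 4 and regulators lower 1 to 3. With 3 arrays per group changes of 1.5 fold can be missed. In simulated data, where fewer probes changed than were called here, 10% of them were recovered. Dim probes such as that of Slc25a30 are limited by the background.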
